A study of Schizosaccharomyces pombe with 2 samples.

Results

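Near the ends of chromosomes I and II of the fission yeast Schizosaccharomyces pombe, 93 genes were followed by the sequencing clone (cosmid) that their systematic names carry. They were all spotted genes on SPAC212, SPAC977, SPAC750, SPAC186, SPAC869, SPAC1348, SPBC1348, SPBPB10D8 and SPBPB2B2, among 4868 gene names on the array, and 86 of the 93 were measured on both arrays. Total RNA of cells labelled pob3 was compared with RNA of wild-type cells, labelled wt, on 2 spotted arrays, each holding both RNAs in different dyes. The Pob3 protein belongs to FACT, which takes nucleosomes apart and rebuilds them as polymerases pass. On replicate 1 the pob3 RNA carried the dye Cy5 and the wt RNA Cy3, and on replicate 2 the dyes were swapped. The allele of pob3, the strain background and the growth of the cells are not given in the sources used here. Whether each array was made from its own cultures is not stated, and the tests therefore reflect only how far these arrays differ, a spread that may be technical. The series concerns FACT in centromeric heterochromatin, and the comparison asks which transcripts differ between pob3 and wt cells.

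Genes next to the telomeres of fission yeast lie in heterochromatin, in which histone H3 is methylated at lysine 9 and bound by the HP1 protein Swi6. Deacetylases such as the Clr3 complex and the telomere protein Taz1 help to keep this chromatin silent, and subtelomeric genes are typically transcribed little in growing cells. The outermost gene kept in the assembled sequence, tlh1, encodes a helicase of the RecQ family and carries sequence similar to the centromeric repeats. Several subtelomeric families have near-identical copies at more than one end, so a spotted probe can report the sum of several copies. The near copy tlh2 has no name of its own on this array, and signal at tlh1 cannot be told apart from it.

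Most of the genes differed little, and a small number close to an end stood out. At an adjusted p under 0.05 (limma, Benjamini-Hochberg over 4766 measured genes), 3 of the 86 members rose in pob3 cells and 0 fell. Over all measured genes 0.441% were called higher and 0.0839% lower. At an unadjusted p under 0.05, 9 members were higher and 3 lower, beside 4.47% and 2.94% of all measured genes. Among the 9, SPBPB2B2.04 and SPAC186.07c had no wt spot above background on either array, so only their pob3 signal kept their spots. With no spot filter, or with both channels required above background, 7 members were higher at this limit. The shares of all genes under those filters are not given here. The limit of 2-fold, which the submitters used for their gene lists, was passed upwards on both arrays by 4 members and downwards by 0, beside 0.755% and 0.231% of all measured genes. These 4 genes were tlh1, SPAC750.07c, SPAC212.08c and SPAC212.06c, and the last of them missed the adjusted threshold.

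Over all members together the centre lay close to that of the array. The median log2 ratio of pob3 over wt was 0.08 over the members, 0.14 on replicate 1 and -0.02 on replicate 2, and 0.02 over all measured genes. The members' mean ratios ran between -0.68 and 4.11. Both arrays put 30 members (34.9%) above 0 and 22 (25.6%) below 0, while 34 (39.5%) had opposite signs on the 2 arrays. The same shares over all measured genes were 26.8%, 25.7% and 47.4%. Single ratios were larger in size among the members, with a median of 0.29 in either direction against 0.20 over all measured genes. Across genes, the 2 arrays had a Pearson r of 0.547 and a Spearman rho of 0.265 over the 86 members, which share the same slides and RNA. Over all 4766 genes r was 0.155 and rho 0.105.

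The change at tlh1 (SPAC212.11) was the largest rise of all measured genes. Its spots, after subtraction of the local background, averaged 26110 in pob3 RNA and 706 in wt RNA on replicate 1. On replicate 2 they averaged 18840 in pob3 RNA and 652 in wt RNA. These signals are not normalised, and Cy5 was the brighter dye over the array as a whole. On replicate 1, pdc102 (SPAC186.09), at a log2 ratio of -0.58, was also brighter in pob3 RNA, at 4492 against 2453. On replicate 2, where pob3 was in Cy3, the pob3 channel of tlh1 was the brighter one. The 4 spots gave log2 ratios of 3.89 and 3.36 on replicate 1 and of 4.53 and 4.64 on replicate 2. The array values were 3.63 and 4.58, with a mean of 4.11 ± 0.68 (SD, n = 2) and an adjusted p of 0.000134 (limma). This is about 17.2-fold. None of the spots was marked as saturated, and both channels stood above background on all of them.

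Around tlh1 at the left end of chromosome I, SPAC212 holds 10 measured genes, given here from the end inwards. Next to tlh1 come SPAC212.10 and SPAC212.09c, which the RefSeq gene table lists as pseudogenes. Neither passed the test, and for each the 2 arrays disagreed. SPAC212.10 had log2 ratios of -0.61 on replicate 1 and 1.67 on replicate 2, and SPAC212.09c had -0.44 and 1.93. Relative to other genes, both pseudogenes were thus brighter in Cy3 on both arrays, whichever RNA was in Cy3. Both were bright in either RNA: SPAC212.09c averaged 32730 and 28070 in pob3 RNA, against 21790 and 8076 in wt RNA. SPAC212.10 averaged 24420 and 15960 in pob3 RNA, against 15000 and 5371 in wt RNA. These signals are not normalised, and Cy5, which carried pob3 RNA on replicate 1, was the brighter dye over the array as a whole. Higher raw pob3 signals on replicate 1 thus go with normalised log2 ratios below 0. The means over both arrays were 0.74 ± 1.67 (adjusted p = 0.764) and 0.53 ± 1.62 (adjusted p = 0.834), each over n = 2 arrays by limma, so the direction of neither is settled here.

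SPAC212.08c rose with tlh1. Its signals were 6082 and 3311 in pob3 RNA, against 767 and 1185 in wt RNA, on replicates 1 and 2. The log2 ratios were 1.39 and 1.55, with a mean of 1.47 ± 0.11 (SD, n = 2; limma, adjusted p = 0.0331), about 2.76-fold. SPAC212.06c was brighter, at 21330 and 19970 in pob3 RNA, against 3790 and 7524 in wt RNA. It had log2 ratios of 1.03 and 1.53, with a mean of 1.28 ± 0.36 (SD, n = 2), over 2-fold on both arrays, and missed the threshold at an adjusted p of 0.0632 (limma).

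Further in, the 5 remaining SPAC212 genes had small ratios. SPAC212.05c, a pseudogene in the table, averaged -0.19, SPAC212.04c -0.22 and SPAC212.03 -0.49. SPAC212.02 averaged 0.02 and SPAC212.01c 0.08. Only SPAC212.04c and SPAC212.03 were below 0 on both arrays, and none of the 5 passed the test. The high ratios on this clone were therefore at ranks 1, 4 and 7 from the end, with the 2 unsettled pseudogenes at ranks 2 and 3.

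**Figure D1:**
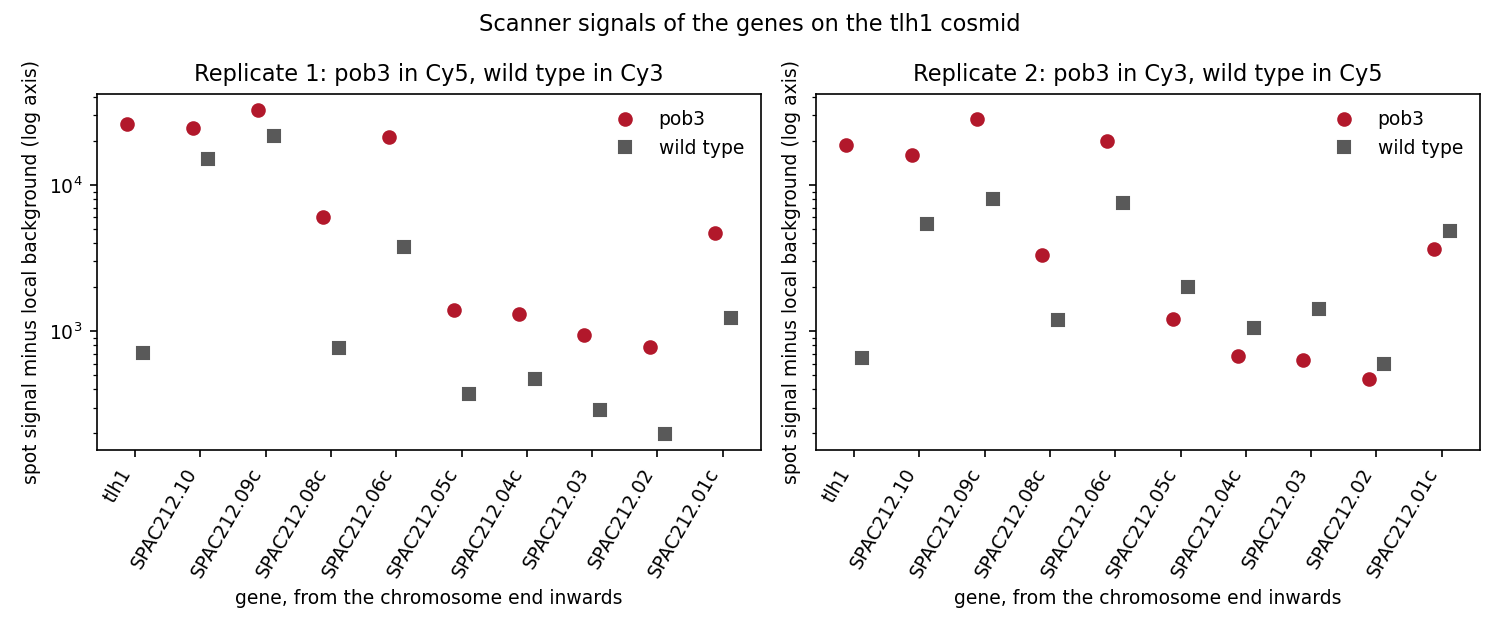
Spot signals of the 10 measured SPAC212 genes, averaged over the duplicate spots after subtraction of the local background, on a log axis, with pob3 RNA as circles and wild-type RNA as squares on each array. On both arrays tlh1 is far apart (26110 in pob3 RNA and 706 in wt RNA on replicate 1, 18840 in pob3 RNA and 652 in wt RNA on replicate 2), while the innermost genes lie closer together; Cy5 is the brighter dye over the array as a whole, so raw gaps are wider for pob3 on replicate 1.

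SPAC977 continues inwards from SPAC212, and 0 of its 15 measured genes passed the adjusted threshold. At an unadjusted p under 0.05, 1 was higher and 1 lower, beside 4.47% and 2.94% of all measured genes. The median of SPAC977 was 0.12. Above 0 on both arrays were 6 of its genes, and 4 were below 0 on both, beside 26.8% and 25.7% of all measured genes. SPAC977.14c was the highest, at 0.57 and 0.73 on the 2 arrays (adjusted p = 0.569). The phospholipase B gene plb4 (SPAC977.09c) was at -0.55 and -0.56, nearly equal on both arrays, with an adjusted p of 0.669. SPAC977.12 had -0.07 and -0.95, a mean that rests on replicate 2. The flocculin gene pfl6 averaged -0.38, ayr2 (an acyl-dihydroxyacetone-phosphate reductase in budding yeast) -0.38 and the fluoride exporter gene fex1 0.03. The members named ftm1 and ftm2 were at 0.45 and 0.12.

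The right end of chromosome I was measured at 26 of its 27 members, on SPAC750, SPAC186 and SPAC869, and 1 of them rose. This was SPAC750.07c, the second gene from the end. Its signals were 6758 and 4380 in pob3 RNA, against 566 and 1265 in wt RNA. The log2 ratios of 1.89 and 1.84 were almost the same on both arrays, with a mean of 1.87 ± 0.03 (SD, n = 2; limma, adjusted p = 0.0112), about 3.65-fold. The outermost gene, SPAC750.08c, lay beside it without a settled direction, at -0.22 and 0.22.

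Most of the rest of SPAC750 had small ratios above 0. Of its 7 measured genes, 5 were above 0 on both arrays and 0 below 0 on both, with a median of 0.29. Apart from SPAC750.07c these were SPAC750.01, SPAC750.02c, ftm3 and ftm4, at 0.51, 0.27, 0.29 and 0.43, and none of these 4 passed the test. The 4 measured ftm genes of both ends of chromosome I, ftm1 to ftm4, were all above 0 on both arrays, with a median of 0.36. Over all measured genes, 26.8% were above 0 on both arrays. ftm2 was near 0 on both, at 0.08 and 0.16, and ftm3 was at 0.08 and 0.51. They share a family name, and whether their probes tell them apart is not given, so they may not be separate measurements. ftm7, at the right end of chromosome II, was not measured.

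SPAC186 and SPAC869 were mixed, with medians of -0.11 over 9 genes and -0.03 over 10. Genes with annotated functions had values in both directions. The flocculin gene pfl9 had 0.56 and 0.45, and the pyruvate decarboxylase gene pdc102 (SPAC186.09) -0.58 and -0.53 (adjusted p = 0.669). For the alpha-galactosidase gene mel1 (SPAC869.07c), 1.23 on replicate 1 stood against -0.01 on replicate 2, and neither wt spot was above background on replicate 1. The arrays agreed on put4 (SPAC869.10c), a proline permease gene, at -0.32 and -0.44, and on SPAC186.03 at -0.22 and -0.40. The flavohaemoprotein gene yhb1 averaged -0.16, the sulphate transporter gene sul2 0.16 and pcm2, for a protein methyltransferase that repairs isoaspartate, 0.51. Of the 19 genes, 0 passed the adjusted threshold. At an unadjusted p under 0.05, 1 was higher and 1 lower, beside 4.47% and 2.94% of all measured genes. The higher one was SPAC186.07c, which had no wt spot above background on either array.

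At the left end of chromosome II, 19 of 21 members were measured, on SPAC1348 and SPBPB10D8. The RefSeq table holds no SPAC1348 gene. For 13 of the 14 spotted SPAC1348 names it lists a gene of the same number on SPBC1348 at the left end of chromosome II, and the array carries 0 SPBC1348 names. They were placed there by number, with no gene name or role given. SPAC1348 had a median of 0.22 over 13 genes, 7 of them above 0 on both arrays, as were 26.8% of all measured genes. The median is the value of SPAC1348.04, one of the 7, which had no wt spot above background on either array. SPAC1348.03, another of the 7, was at 0.61 on replicate 1 and 0.01 on replicate 2. The highest were SPAC1348.02, at 0.68 and 0.53 (adjusted p = 0.632), SPAC1348.05 at 0.30 and 0.72, and SPAC1348.01 at 0.73 and 0.19. The lowest was SPAC1348.09, at -0.29 and -0.74, followed by SPAC1348.08c at -0.29 and -0.66. Of the 7 genes above 0 on both arrays all but SPAC1348.12 were at ranks 2 to 8, and SPAC1348.08c to SPAC1348.10c, at ranks 9 to 11, were below 0 on both.

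SPBPB10D8 lies further in, at ranks 30 to 36. Of its 6 measured genes, at ranks 31 to 36, 5 were above 0 on replicate 1 and below 0 on replicate 2. SPBPB10D8.07c had 0.80 and -0.69, and SPBPB10D8.04c 0.00 and -0.93. SPBPB10D8.02c had 1.02 and -0.86, but neither of its wt spots stood above background on replicate 1, so the first value is not an exact ratio. Cy5 was the brighter dye relative to other genes on both arrays for these 5. The medians were 0.63 on replicate 1 and -0.67 on replicate 2, and they cancelled to 0.00 in the mean. No direction of change is therefore settled for SPBPB10D8, and 0 of its genes passed the test, adjusted or not.

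SPBPB2B2 stands in the RefSeq table at the right end of chromosome II, from the 10th gene inwards, although it was grouped with the left end when the genes were chosen. Its median over 16 of 20 genes was -0.09, and 0 passed the adjusted threshold. At an unadjusted p under 0.05, 2 were higher and 1 lower, beside 4.47% and 2.94% of all measured genes. The highest was SPBPB2B2.01, listed as nrg1 in the table, at 1.09 and 0.86, with a mean of 0.97 ± 0.16 (SD, n = 2; limma, adjusted p = 0.202). SPBPB2B2.04, 1 of the 2 higher genes, had 0.34 and 1.47 (limma, adjusted p = 0.468), each from 1 kept spot. Its wt signal was not well above background on either array, and only its pob3 signal kept those spots. Its other spots were at 0.95 on replicate 1 and -0.67 on replicate 2, and with no spot filter its mean was 0.52. Because the kept spots were chosen by their pob3 signal, no smallest fold can be given for this gene. The lowest was pan5 (SPBPB2B2.09c), a dehydropantoate reductase gene in budding yeast, at -0.82 and -0.53 (adjusted p = 0.549).

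The galactose genes sit together on this clone, and none of them passed the test. The galactokinase gene gal1 (SPBPB2B2.13) had -0.08 and 0.88, gal7 (the uridylyltransferase) -0.47 and 0.27, and gal10 (the epimerase) -0.23 and -0.32. The genes gal10 and tgd1 overlap in the table, and whether their probes separate the strands is not given. SPBPB2B2.15 was at -0.25 and -0.41, and SPBPB2B2.20c at -0.06 and -0.50.

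Read by position, the genes nearest an end had the higher ratios. The 27 measured members among the first 10 genes of their end had a median of 0.29. Of these 27, 14 (51.9%) were above 0 on both arrays and 5 (18.5%) below 0 on both. Over all measured genes these shares were 26.8% and 25.7%. All 4 members over 2-fold on both arrays were among the 27, 3 on the left end and 1 on the right end of chromosome I. Another 9 of the 27 were SPAC1348 genes at the left end of II, ranked only by the number they share with an SPBC1348 gene. The 30 members at ranks 11 to 20 had a median of 0.01, and the 25 further in one of 0.05. Above 0 on both arrays were 30% and 24% of them, respectively. Across the 82 members with a rank, Pearson's r between rank and mean log2 ratio was -0.332 and Spearman's rho -0.285, as a description, since the genes share 2 arrays. At the left end of chromosome I r was -0.496 and rho -0.369, and at its right end r was -0.309 and rho -0.198. At the left end of II, where the SPAC1348 ranks were taken by number, r was -0.342 and rho -0.529. At the right end of II, where the members begin at rank 10, r was 0.24 and rho 0.137.

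**Figure D2:**
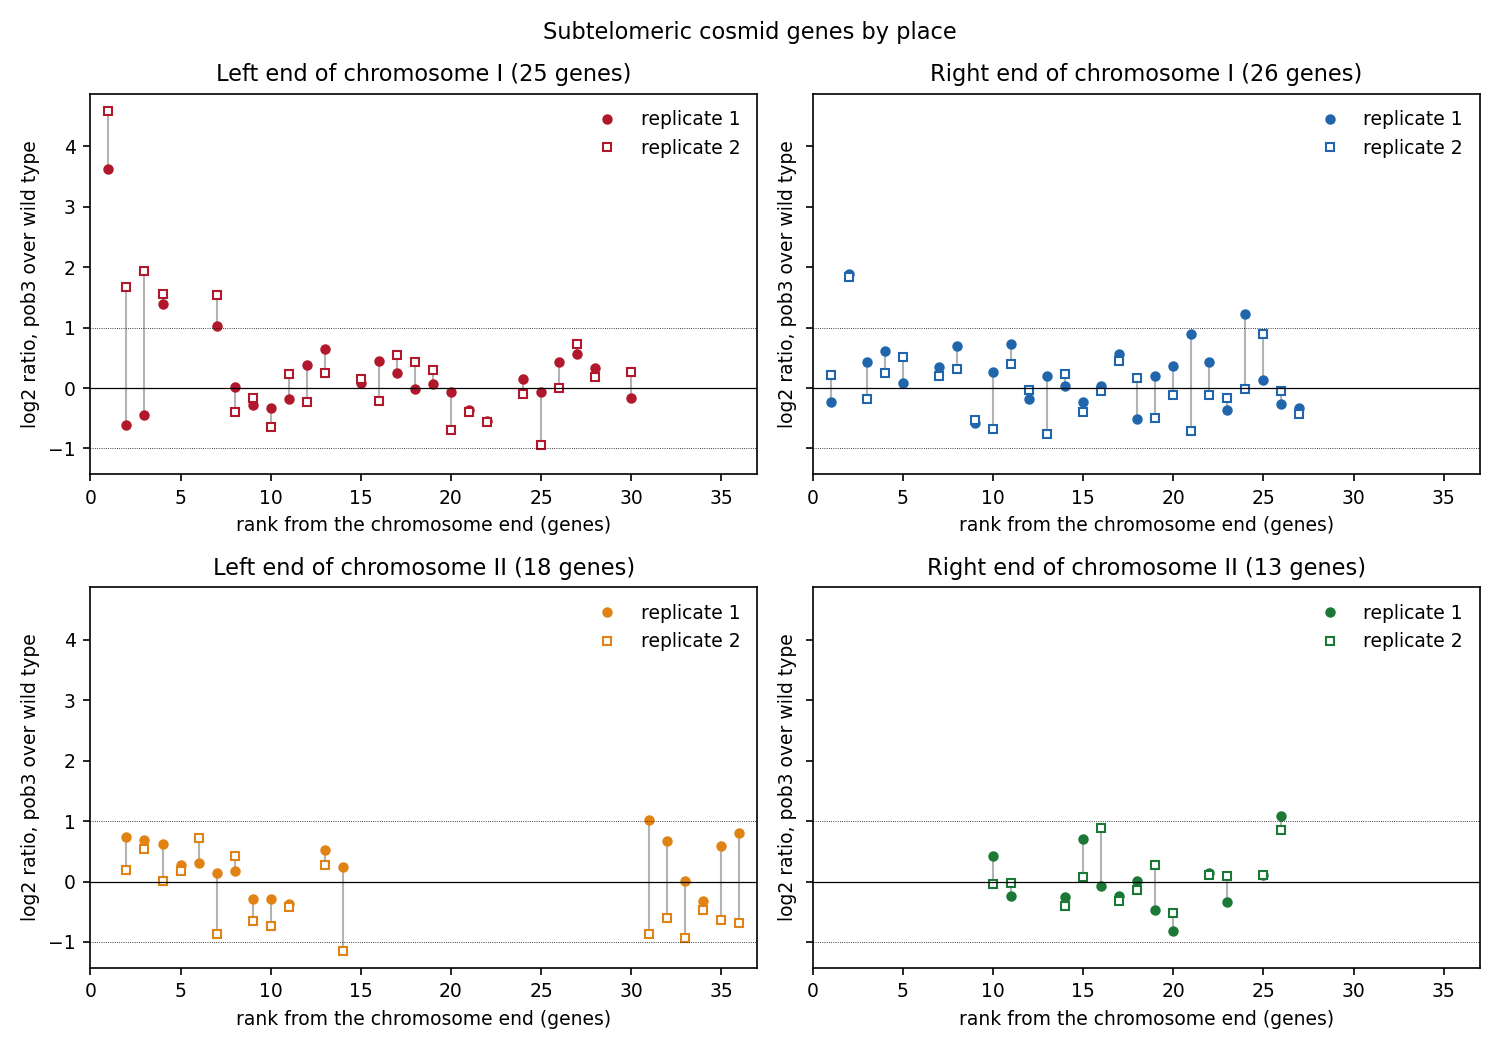
Log2 ratio of pob3 over wild type for the 82 measured members with a rank, by rank from the chromosome end in the RefSeq table. SPAC1348 genes are not in that table and take the rank of the SPBC1348 gene of the same number. Filled circles are replicate 1, open squares replicate 2, grey bars join them, and dotted lines mark 2-fold. High values on both arrays are at ranks 1, 4 and 7 of the left end and rank 2 of the right end of chromosome I, and long bars mark genes whose arrays disagree, such as SPAC212.10 and SPAC212.09c at ranks 2 and 3.

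For some members the ratio between the dyes was larger than the ratio between the RNAs. The average over both arrays of log2 Cy5 over Cy3, in which a change between pob3 and wt cancels, was over 0.5 in size for 11 of the 86 members (12.8%) and for 8.67% of all measured genes. It was -1.18 for SPAC212.09c and -1.14 for SPAC212.10. SPBPB10D8 had a median of 0.63, and 4 of its 6 genes were over 0.5. For tlh1 it was -0.48, small beside its mean ratio, and for SPAC750.07c and SPAC212.08c it was 0.02 and -0.08. With 1 array in each dye orientation, a dye effect and a difference between the RNA of the 2 arrays cannot be told apart.

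**Figure D3:**
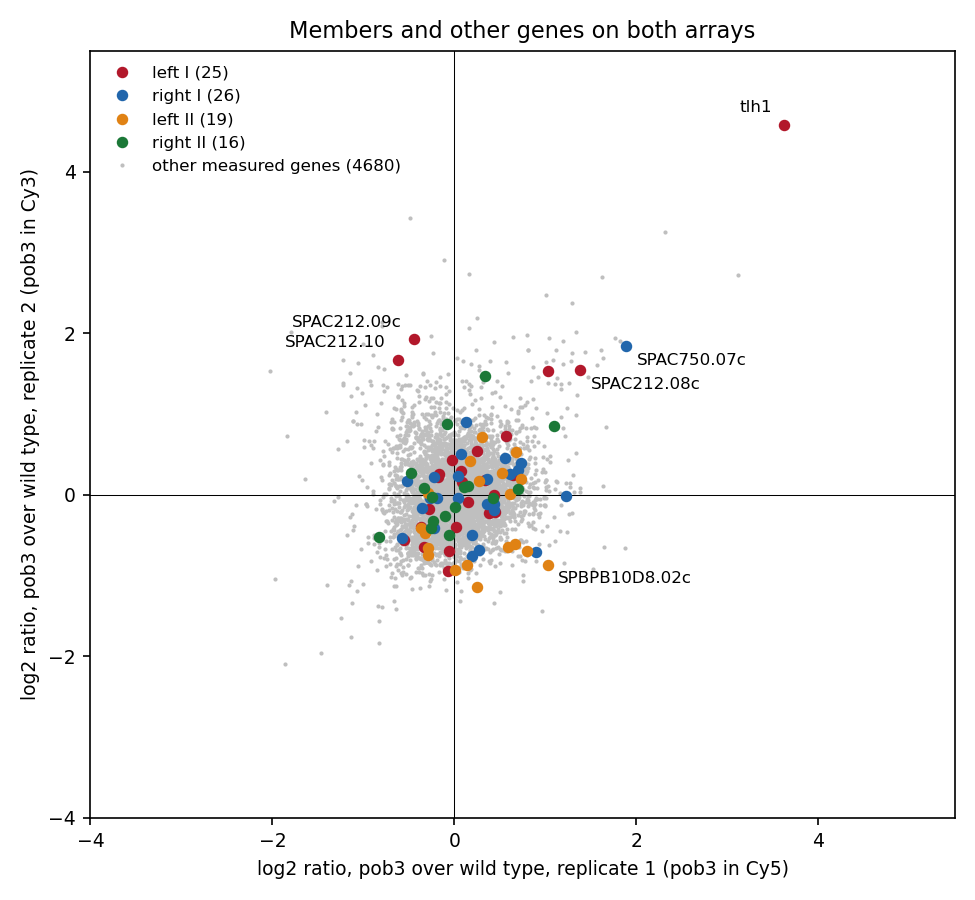
Log2 ratios of pob3 over wild type on replicate 1 (horizontal) and replicate 2 (vertical), with members coloured by chromosome end and the other 4680 measured genes in grey. A gene that differs between pob3 and wild type lies along the rising diagonal, as tlh1 does at 3.63 and 4.58, and a gene whose arrays have opposite signs lies off it, as SPAC212.09c does at -0.44 and 1.93.

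**Figure D4:**
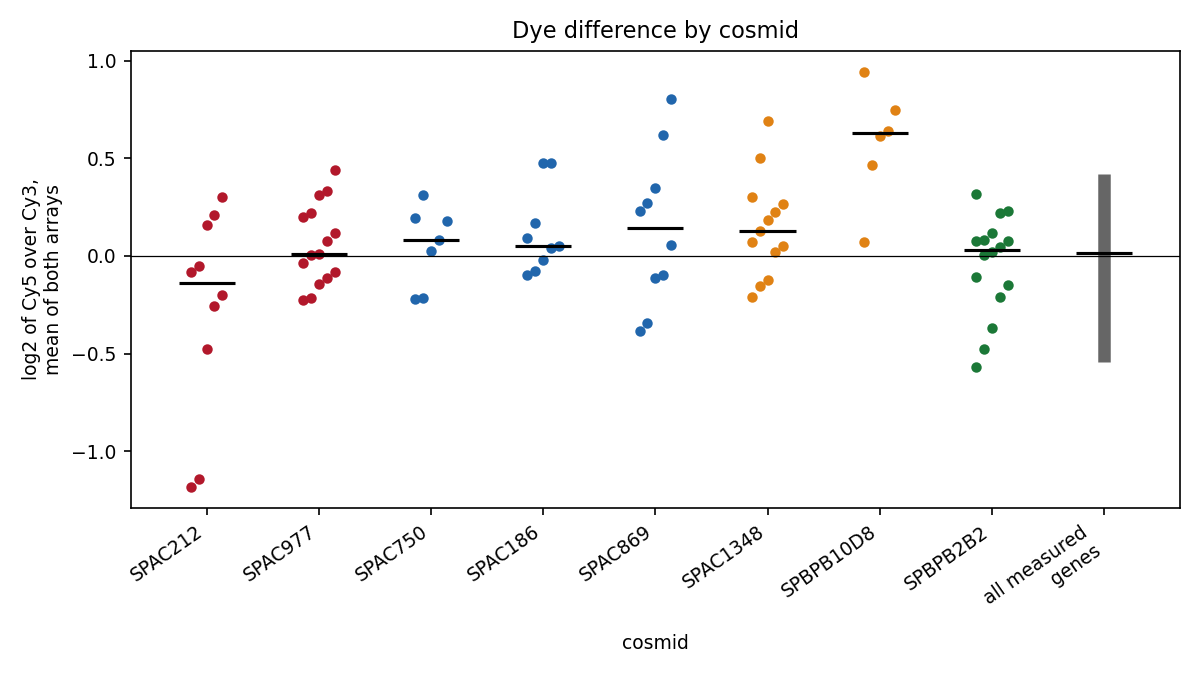
Average log2 of Cy5 over Cy3 for each member by cosmid, coloured by chromosome end as in the plot of both arrays, with black lines at the medians; the grey bar spans the 5th to 95th percentile of all measured genes (-0.54 to 0.42). The median of SPBPB10D8, 0.63, lies above the bar, while SPBPB10D8.05c, at 0.07, lies within it. The 2 lowest points of SPAC212 are its pseudogenes SPAC212.09c and SPAC212.10.

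Signal and spot quality limited the dim members. In wt RNA, 77.4% of the members' spots stood above background on replicate 1, in Cy3, and 87.1% to 90.3% on replicate 2, in Cy5. In pob3 RNA the shares were 93.5% to 94.6% on replicate 1, in Cy5, and 90.3% to 94.6% on replicate 2, in Cy3. Over all genes they were 98.0% to 98.7% in pob3 RNA and 96.6% to 98.3% in wt RNA. RNA and dye change together between the channels of an array, so the gap on replicate 1 cannot be assigned to either alone. The 7 unmeasured members all had 0 usable spots on replicate 1, and SPBPB2B2.05 and ftm7 had 0 on both arrays. In 4 of the 7, at least 1 spot stood above background in pob3 RNA on replicate 1 and was left out by its quality flag, and in SPAC750.03c and SPBPB2B2.16c both spots were. Flags marked 8 and 7 member spots in the 2 files of replicate 1, and 1 and 2 in those of replicate 2. Among measured members, 7 had no wt spot above background on replicate 1, and SPAC869.04 had no pob3 spot above background on replicate 2. For 3 members the wt signal was not well above background on either array. Besides SPBPB2B2.04 these were SPAC1348.04 and SPAC186.07c. Their spots were kept only by their pob3 signal, so no smallest fold can be given for them. SPAC1348.04 had 0.27 from 1 kept spot on replicate 1, and -0.02 and 0.36 from its spots on replicate 2. The log2 ratios of SPAC186.07c were 0.73 and 0.40, each from 1 spot kept by its pob3 signal. Its other spots were at -0.13 on replicate 1 and -0.76 on replicate 2, and with no spot filter its mean was 0.06.

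Position on the slide was set beside the 4 largest changes. SPAC212.08c was spotted directly beside tlh1, and the 7 other measured neighbours of tlh1 had mean log2 ratios of -0.24 to 0.33. The neighbours of SPAC750.07c lay between -0.62 and -0.17, below 0 while it was at 1.87. SPAC212.06c was spotted beside SPAC212.09c, and its 4 other neighbours were at 0.62 to 1.20 on replicate 2 and -0.35 to 0.15 on replicate 1. Its own 1.53 on replicate 2 thus stands in a patch of raised ratios, and whether that patch adds to it was not tested beyond print-tip loess, which fits each block apart and gave it a mean of 1.09 (adjusted p = 0.0389).

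The ratios of the 4 members over 2-fold varied little with the processing, while the calls varied more. Over 13 other ways of processing, the mean for tlh1 lay between 3.94 and 4.34 and passed the threshold in 12. SPAC750.07c lay between 1.76 and 2.06 and passed in 12, and SPAC212.08c lay between 1.25 and 1.58 (limma) and passed in 11. SPAC212.06c lay between 1.09 and 1.29 and passed in 8. Centring each spot file on its median in place of loess ended all 3 calls, at adjusted p values of 0.0502 for tlh1, 0.300 for SPAC750.07c and 0.404 for SPAC212.08c (limma), with 0 genes called over the whole array.

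**Figure D5:**
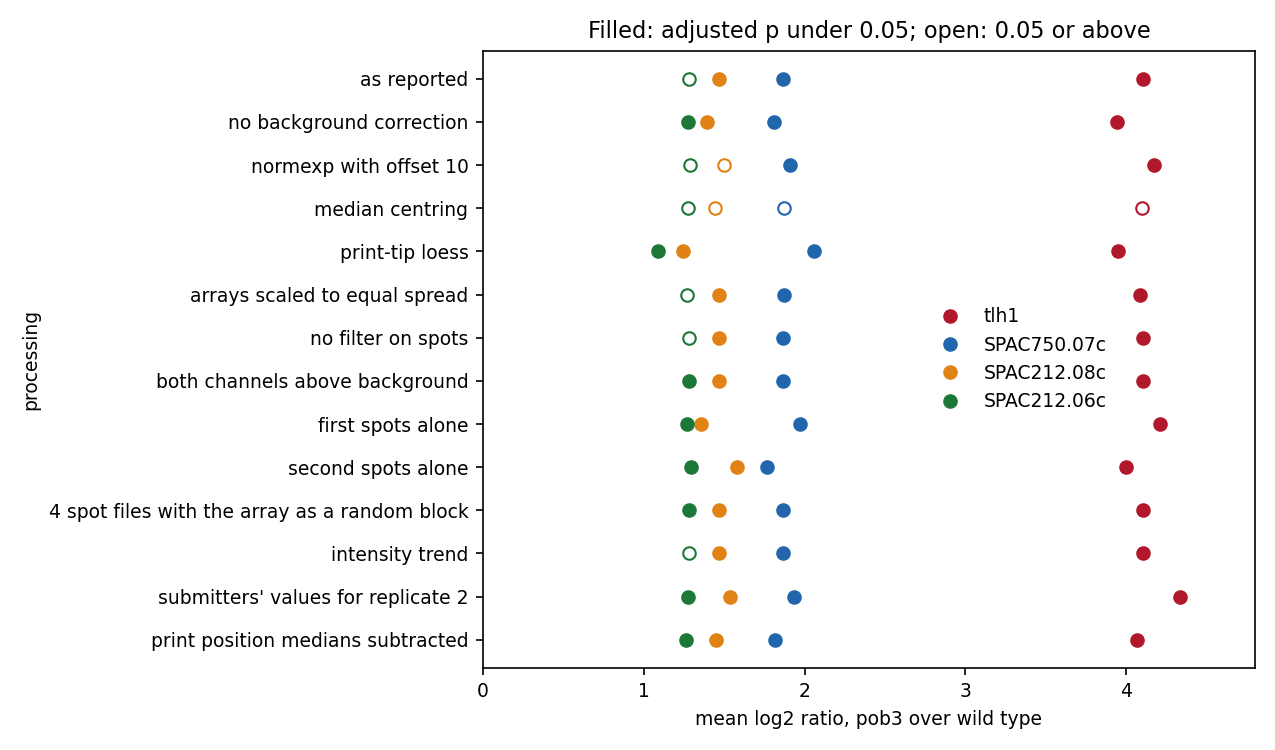
Mean log2 ratio of pob3 over wild type for the 4 members over 2-fold on both arrays, as reported and under 13 other ways of processing; filled points passed an adjusted p under 0.05 and open points did not. The points of each gene stay close together along the axis (3.94 to 4.34 for tlh1), and all 4 are open under median centring.

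Genes outside the members give the setting. The pob3 transcript itself had log2 ratios of -1.40 and -1.12 (mean -1.26, limma, adjusted p = 0.0612), lower in pob3 RNA on both arrays; whether its probe lies in an altered part of the gene is not given. The RecQ helicase gene rqh1, spotted under the older name hus2, was at 0.19 (adjusted p = 0.926). Of a list of 24 genes for telomere proteins and heterochromatin silencing, 22 were measured and 0 passed the adjusted threshold (1 higher and 0 lower at an unadjusted p under 0.05), with a median of 0.04. The smallest p values in it belonged to the methyltransferase gene clr4 at 0.57 (adjusted p = 0.664), the telomerase gene trt1 at -0.46, the shelterin gene poz1 at 0.40 and the deacetylase gene clr3 at -0.36. Among the 25 genes nearest each end of chromosome III, 46 in all were measured, with a median of 0.06. Of these 46, 0 passed, and 2 were higher and 0 lower at an unadjusted p under 0.05. Over all measured genes 4.47% were higher and 2.94% lower at the unadjusted limit used for both lists.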

How the data were processed

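Per the file headers, the deposited scanner files give intensity values, spot medians and local background medians per channel, with 1 file per duplicate spot. The authors used Lowess in GeneSpring, per the design text of the series. Their deposited log2 values for replicate 2 had an r of 0.977 with those computed here, and those for replicate 1 covered 0 gene spots and were not used. In their 2 columns the medians were -0.12 and -0.044, and centring of the first stays unknown. Scanner and software are not given in the sources used here.

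Intensities were corrected by normexp (offset 50) and fitted by loess per file, with control spots at weight 0 (limma 3.58.1, R 4.3.3). Ratios were turned to pob3 over wt, and usable spots of a gene were averaged per array. A usable spot had flag 0 and at least 1 channel above background (2 background SDs in Cy3, 1.5 times background in Cy5). The channel of the deposited background SD is unnamed; its values pointed to Cy3, and the Cy5 limit was chosen after seeing the files. The offset pulls ratios of dim spots towards 0. The test was lmFit and eBayes of the mean of 2 arrays against 0, with 1 residual degree of freedom and a pooled spread (prior degrees of freedom 9.71, prior SD 0.37). Precision is limited by the number of arrays. On simulated ratios with this spread and 2 arrays, the share of false calls was above the aimed 0.05 in most runs, so the threshold is less strict than it reads. Alternatives covered background, normalisation, spot filter, duplicate spots, array block, trend and the authors' values.

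Members and lists were chosen with earlier results of these data known. Named were tlh1, all SPAC212 genes, members past 0.05 or over 2-fold on both arrays, the 3 highest and 3 lowest at each end (stated for 3 ends, applied at 4), and most members with a symbol, added after their values were seen. Those with a symbol and no value above were gdt1 (0.19 on replicate 1 and -0.75 on replicate 2), hry1 (-0.36 and -0.16), say1 (0.11 and 0.10) and tgd1 (0.01 and -0.15). Places and symbols come from the RefSeq gene table (ASM294v3), which matched 76 of 93 members by ID. Near-identical proteins were not used here.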

Additional observations from a re-analysis of the deposited data

Results flagged for a closer look

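SPAC212.07c, which lies between SPAC212.08c and SPAC212.06c by number, is marked as missing in the spot files and was left out of the members. Its 4 spots were nevertheless above background in both the pob3 and the wt channel. Of 2108 empty and buffer spots, 4.74% were above background in the pob3 channel and 3.46% in the wt channel. The log2 ratio of pob3 over wt at SPAC212.07c was -0.30 on replicate 1 and -0.27 on replicate 2 (mean -0.29, SD 0.018, n = 2), on the other side of 0 from SPAC212.08c at 1.47 and SPAC212.06c at 1.28. It was not tested, since the files do not say what was spotted there.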

How the results depend on the processing

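The count of 3 members past the threshold was 0 with median centring, which for tlh1 gave 4.10 (limma, adjusted p = 0.0502). Median centring left 6 members higher and 0 lower at an unadjusted p under 0.05. The share of all genes at that limit is not given here, so these 6 show nothing particular to the members. The count past the threshold was 5 with print-tip loess, which added SPAC212.06c and SPBPB2B2.01 (adjusted p = 0.0454, limma). With print-tip loess 0.986% of all genes were called higher, against 0.441% as reported. The count was 7 with the submitters' values for replicate 2, over 3133 genes tested, of which 1.6% were called higher. Those values added SPAC212.06c, SPBPB2B2.01, SPBPB2B2.04 and, lower, SPAC1348.14c. SPAC212.08c also missed the threshold with a normexp offset of 10 (adjusted p = 0.0614, limma). Calls over all genes numbered 25 as reported and 0 to 68 under the alternatives. On single arrays, 7 to 8 members were over 2-fold in either direction (8 on replicate 2, where SPAC1348.14c was lower), against 4 on both. The share of all measured genes over 2-fold on a single array is not given here, so these single-array counts show nothing particular to the members. Without replicate 1 the ratio of tlh1 was 4.58 and without replicate 2 it was 3.63, values with no test. The median at the right end of chromosome II, -0.09, was -0.0172 with median centring, -0.0184 with first spots alone, 0.0554 with no spot filter, 0.0388 with second spots alone, and -0.0682 to 0.0241 on single arrays. Other medians changed sign too. At the left end of II 0.03 became -0.47 and 0.27 on single arrays, -0.14 with first spots alone, -0.04 with print-tip loess, -0.03 with no background correction and -0.02 with the submitters' values. At the right end of I 0.11 became -0.04 without replicate 1 and -0.003 with the submitters' values, and over all members 0.08 became -0.02 without replicate 1. Of the 4 ends, only the left end of I (0.12) stayed above 0 throughout, at 0.06 to 0.18. SPBPB2B2.15 was at 0.14 with first spots alone, against -0.33. The cause of these shifts was not tested. Subtracting print position medians and leaving out SPAC212 were chosen after seeing the data; without SPAC212 the members' median was 0.07. The alternative without near-identical proteins was not run. Each array holds both RNAs, so the reported test of the ratio is itself paired. The prior degrees of freedom behind each call were 9.71 as reported and 5.61 (median centring) to 112 (the submitters' values) where recorded for the alternatives.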
